A study of Mus musculus with 11 samples.

Results

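The collagen genes of the mouse were followed in muscle stem cells, also called satellite cells, that were fixed either inside the muscle or after they had been taken out of it. The genes were chosen by name, as every row of the deposited count table whose Ensembl identifier carries a symbol of the form Col, number, a, number. This gave 44 genes of 48709 rows, of which 48349 had a symbol. Each of the 44 passed the filter on low counts, which left 31999 genes to test. Collagen V and collagen VI are described apart from the other fibrillar collagens and from the basement membrane collagens.

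The cells came from pectoral, forelimb and hindlimb muscles of Tg:Pax7-nGFP mice, in which the Pax7 promoter drives a nuclear green fluorescent protein, on the C57BL/6 strain. All 3 groups share this transgene, the sort on it and fixation in 0.5% paraformaldehyde, and no age is used here. In T0 (n = 3) the dissected muscles were fixed for 1 h at 4 °C, so that the cells were held in situ before the tissue was taken apart. In T3 (n = 4) the cells went through the usual dissociation and sort, and were fixed for 30 min on ice afterwards. T5 differed from T3 by 2 h at 37 °C in DMEM, a culture medium, and its 4 libraries were added up by their letter to replicates A and B (n = 2). The protocol text puts those 2 h before the isolation of the cells and the design text after it, so the order is not settled. Isolation and the way of fixing changed together between T0 and T3 and cannot be told apart. Nothing in the labels ties a replicate to an animal of its own. The p-values therefore speak of the spread between these libraries only, and that spread may be technical. Values are given in the order of replicates 1 to 3 for T0, 1 to 4 for T3, and A and B for T5.

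Collagens are triple helices of wound chains, and each Col gene encodes a kind of chain. Fibrillar collagens pack into fibrils, type IV collagen forms the sheet of the basement membrane, type VI forms beaded filaments between that sheet and the fibrils, and the FACIT collagens decorate fibril surfaces. Satellite cells lie between the muscle fibre and its basement membrane. Collagen V and collagen VI are both known as parts of their niche: collagen V made by the cells is a ligand of the calcitonin receptor (Calcr) and a target of Notch signalling, which acts through the DNA-binding protein RBPJ. Fibro-adipogenic progenitors, the fibroblast-like cells of muscle, make most of the tissue's collagen I, III and VI.

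Library totals ran from 49078859 to 67251946 counts in T0 and from 52632553 to 72638711 in T3, and T5 replicates A and B held 177915889 and 130354084. The unit of level is CPM, the count as a share of a library size corrected by TMM factors. The satellite cell markers were present in every library, with Pax7 at 3137 to 4440 CPM in T0, from 249 to 399.9 CPM in T3 and from 306 to 325 CPM in T5, and no marker of 7 other cell types was at 0. Between T0 and T3, 6 of 12 satellite cell markers were called lower and 3 higher (50.0% and 25.0%, against 22.9% and 15.0% of all genes tested). Their summed level was 5949 to 9363 CPM in T0, from 3001 to 3674 CPM in T3 and from 2188 to 2278 CPM in T5. Of 8 myofibre markers 7 were called higher in T3 (87.5%). Their sum was 63.0 to 71.5 CPM in T0, from 116 to 175 CPM in T3 and from 105 to 108 CPM in T5. It rests mainly on Ttn, with means of 47.5 CPM in T0, 80.0 in T3 and 80.3 in T5. Of the 8 markers, 4 were called lower in T5 than in T3 (50.0%, against 0.888% of all genes), and 3 higher in T5 than in T0 (37.5%). Of 6 Schwann cell markers 3 were called higher in T3 than in T0 and 1 lower (50.0% and 16.7%). The part of these movements in the collagen values was not tested. T0 replicate 3 stood apart from the other T0 libraries on the second principal component of all genes (-61.0 against 39.9 and 3.16). Intronic reads and reads of either strand are counted here: of 3638 tested genes nested in a gene on the opposite strand, the host had at least as high a count in 3628 (99.73%). Reads of a gene that overlaps another can therefore belong to either. Of the 44 collagen genes 27 overlap another gene, and the count of that gene was at least 10% of their own, a limit chosen after the values were seen, for 7: Col4a1, Col4a2, Col4a3, Col9a3, Col10a1, Col18a1 and Col20a1. The share takes the whole count of the other gene, not the reads within the overlap. Col4a1 and Col4a2 overlap each other only by a few bases at their starts. For them the share says little about how many reads could belong to either. The values of the rest of these 7 are uncertain, and in the other 20 the share was at most 6.31%.

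Between T0 and T3, 11 of the 44 collagen genes were called higher and 9 lower, against 15.0% and 22.9% of all genes tested. Those counts are 25.0% and 20.5% of the members. "Called" means an adjusted p under 0.05 in edgeR's quasi-likelihood test with Benjamini-Hochberg adjustment over all genes. The median log2 fold change was 0.16 for the members and 0.0472 for all genes. The genes called higher were Col5a2, Col6a3, Col1a1, Col1a2, Col11a2, Col24a1, Col27a1, Col9a3, Col12a1, Col23a1 and Col8a1. The genes called lower were Col6a1, Col6a2, Col3a1, Col15a1, Col18a1, Col16a1, Col19a1, Col10a1 and Col26a1. In these bulk libraries fewer cells of a type and less RNA per cell cannot be told apart. The count of members called higher was 19 without T0 replicate 3 and 7 without T0 replicate 1, T0 replicate 2 or T3 replicate 3. With upper quartile scaling the median of all genes moved from 0.0472 to 0.318 and the share of lower calls among all calls from 60.4% to 44.75%.

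Few members were called with the added 2 h, in a comparison that rests on 2 replicates of T5. Col12a1, Col26a1 and Col27a1 were called higher in T5 than in T3 and Col19a1 lower. These are 3 and 1 of 44 (6.82% and 2.27%), against 1.28% and 0.888% of all genes. With only T3 and T5 fitted, 6 members were called higher. Against T0, 12 members were called higher in T5 and 7 lower (27.3% and 15.9%, against 13.2% and 22.5% of all genes). The median log2 fold change was 0.42 for members and 0.183 for all genes. Without T0 replicate 3, 22 were called higher. Without T5 replicate A no member was called higher than T3, and without replicate B 1 was. The comparisons of T3 and of T5 with T0 share the T0 libraries, and those of T5 with T3 and of T3 with T0 share the T3 libraries, so their values are set side by side and not counted as separate evidence. Among all genes, the share of lower calls between T5 and T3 was 40.86%, and 66.21% with DESeq2; between T5 and T0 it was 62.95%, and 44.06% with upper quartile scaling.

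**Figure D1:**
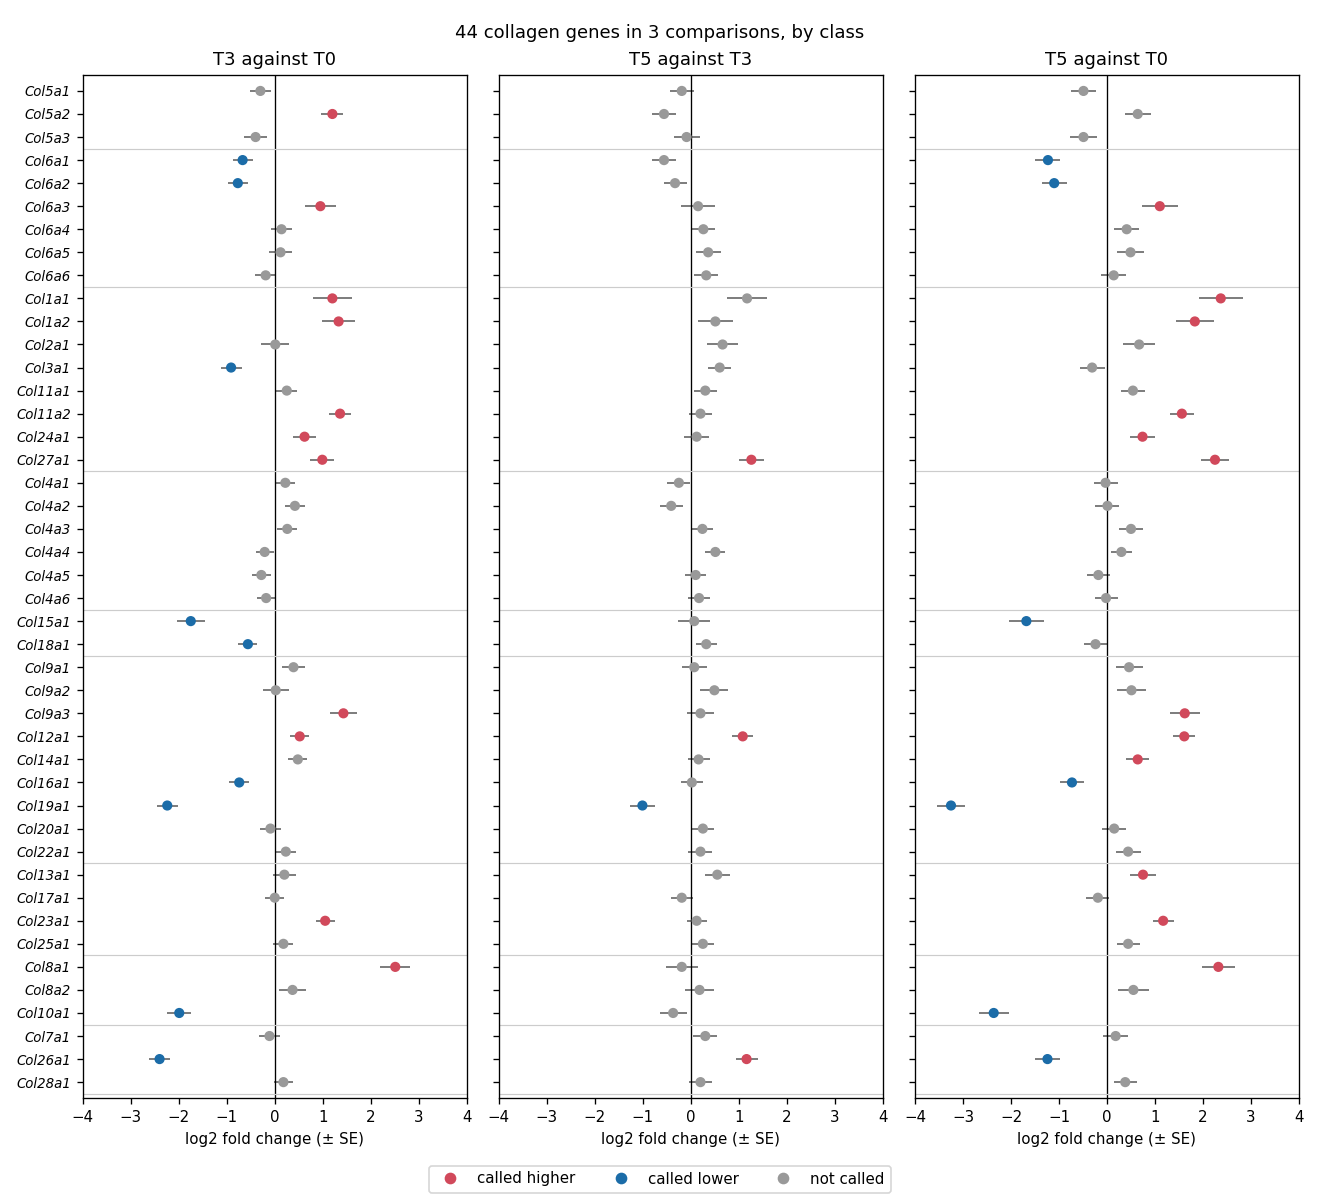
Log2 fold change with its SE for each of the 44 collagen genes in the 3 comparisons. Genes are ordered by class, with grey lines between collagen V, collagen VI, the other fibrillar collagens, type IV, the multiplexins, the FACIT, transmembrane and short-chain collagens and the rest. Red points were called higher and blue points lower; in T3 against T0 there are 11 red and 9 blue points, and in T5 against T3 there are 3 and 1.

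Collagen V is a minor fibrillar collagen whose chains are copolymerized with collagens I and III. Of its 3 genes, Col5a2 rose between T0 and T3, and Col5a1 and Col5a3 did not pass the test in any comparison. Col5a1 (ENSMUSG00000026837.15, chr2:27886425-28039514, plus strand) encodes a chain found in nearly all collagen V molecules. It was at 592, 438 and 419 CPM in T0, 302, 378, 482 and 402 CPM in T3, and 350.3 and 336 CPM in T5. The T0 and T3 replicates overlapped, and T0 replicate 1 was the highest of all (log2 fold change -0.30 ± 0.22 SE, adjusted p = 0.312). T5 lay below each T0 replicate without passing the test (log2 fold change -0.49 ± 0.26 SE, adjusted p = 0.155).

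Col5a2 (ENSMUSG00000026042.16, chr1:45374321-45503282, minus strand) encodes the partner chain. Its level was 249.7, 188 and 159 CPM in T0, 525, 359, 382 and 564 CPM in T3, and 333 and 286 CPM in T5. Each T3 replicate was above each T0 replicate, and replicates 1 and 4 were the highest of T3. The difference was 2.30-fold (log2 fold change 1.20 ± 0.23 SE, adjusted p = 0.000215) and kept its call in each of 17 alternative analyses. T5 lay between the other groups and overlapped neither, but passed against neither T3 (log2 fold change -0.56 ± 0.26 SE, adjusted p = 0.37) nor T0 (log2 fold change 0.64 ± 0.27 SE, adjusted p = 0.0687). The last of these passed in 5 of 16 alternatives, for example with upper quartile scaling (log2 fold change 1.01, adjusted p = 0.00302) and without T0 replicate 1 (0.83, adjusted p = 0.0203).

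Col5a3 (ENSMUSG00000004098.7, chr9:20770050-20815067, minus strand) encodes the least widespread chain of the type. It stood at 278, 239 and 124 CPM in T0, 134, 158, 179.7 and 176 CPM in T3, and 146 and 159 CPM in T5. T0 replicate 3 was the lowest of the 9 values, while the other T0 replicates were the highest. With all replicates the gene passed neither between T0 and T3 (log2 fold change -0.40 ± 0.24 SE, adjusted p = 0.207) nor between T0 and T5 (log2 fold change -0.49 ± 0.29 SE, adjusted p = 0.192). Without T0 replicate 3 it was called lower in both (log2 fold change -0.68, adjusted p = 0.00217, and -0.76, adjusted p = 0.00308), and Col5a1 was called lower in T5 than in T0 (-0.58, adjusted p = 0.0397).

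The balance between collagen V chains was also taken within each library, where scaling drops out. The ratio of Col5a2 to Col5a1 reads was 0.422, 0.428 and 0.380 in T0, 1.739, 0.948, 0.792 and 1.403 in T3, and 0.950 and 0.852 in T5. Every T3 and T5 value lay above every T0 value. The mean log2 ratio was 1.51 higher in T3 than in T0, with p = 0.0286 in a two-sided exact permutation test, the smallest p that 35 regroupings allow, and 0.114 after adjustment over the 4 chain pairs compared. The Col5a3 to Col5a1 ratio was 0.438 ± 0.128 (SD, n = 3) in T0 and 0.418 ± 0.0319 (SD, n = 4) in T3, and differed by less than that spread (exact permutation p = 0.943, adjusted 0.943). Leaving out each replicate in turn kept the first difference between 1.31 and 1.69.

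Per kb of exon, Col5a1 was at 56.9 and Col5a2 at 20.7 CPM in T0, and the 2 chains stood at 46.05 and 47.7 in T3. Since intronic reads are in the counts, these per-length levels are approximate. Col5a2 lies 24614 bp from Col3a1 on chromosome 1, on the opposite strand, and Col3a1 fell in the comparison in which Col5a2 rose.

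**Figure D2:**
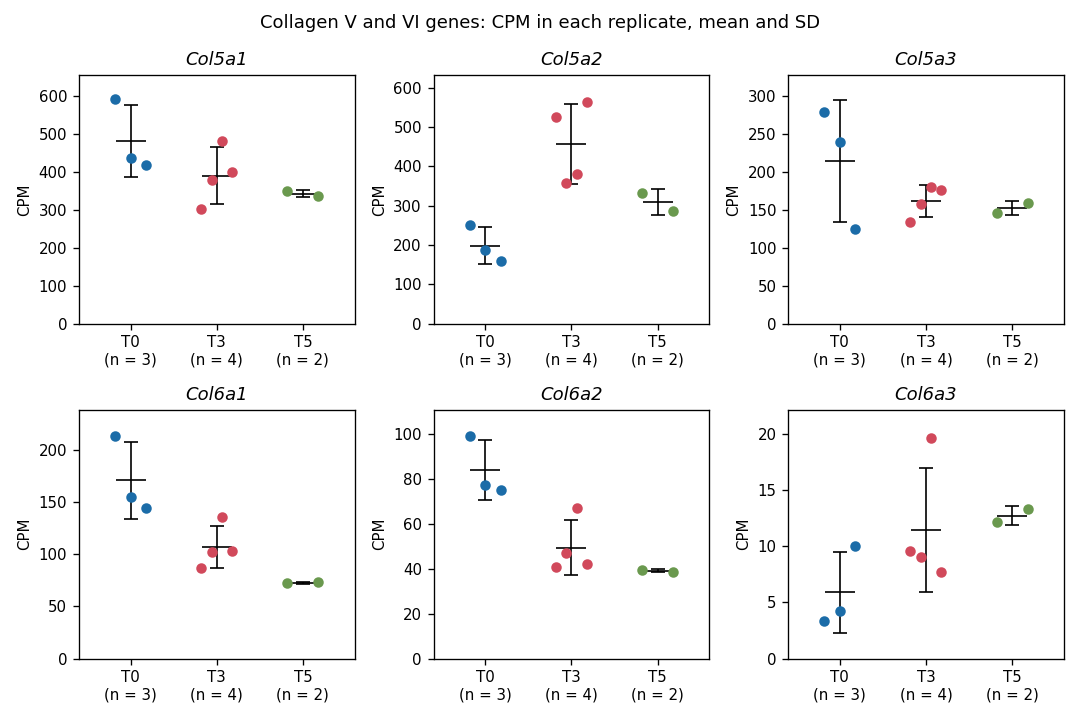
CPM of the 3 collagen V genes and of Col6a1, Col6a2 and Col6a3 in each replicate; points are replicates, bars the mean and SD, and the y axes start at 0. Col5a2 in T3 lies above T0 without overlap, Col6a1 and Col6a2 in T3 and T5 lie below T0, and the highest Col6a3 value is T3 replicate 3 at 19.6 CPM.

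Collagen VI is assembled from an alpha-1, an alpha-2 and a further chain that is alpha-3 or one of the chains encoded by Col6a4, Col6a5 and Col6a6. Col6a1 and Col6a2 fell between T0 and T3 and Col6a3 was called higher, while the 3 other genes passed in no comparison. Against T0, T5 gave the same calls for these 6 genes, and none was called between T3 and T5. Col6a1 (ENSMUSG00000001119.7, chr10:76708792-76726168, minus strand) was at 213, 155 and 144 CPM in T0, 87.00, 102, 135 and 103 CPM in T3, and 71.97 and 73.5 CPM in T5. The T3 values lay below each T0 value and the T5 values below each T3 value. The fall to T3 was 1.60-fold (log2 fold change -0.67 ± 0.21 SE, adjusted p = 0.0128) and that to T5 2.35-fold (log2 fold change -1.23 ± 0.26 SE, adjusted p = 0.000679). The call in T3 was lost in 4 of 18 alternatives, among them upper quartile scaling (-0.37, adjusted p = 0.0669) and leaving out T0 replicate 1 (-0.49, adjusted p = 0.0835) or T3 replicate 1 (-0.59, adjusted p = 0.056). That in T5 held in each of 17 alternatives.

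Col6a2 (ENSMUSG00000020241.13, chr10:76595762-76623630, minus strand) is its neighbour on chromosome 10, 85161 bp away on the same strand. Its level was 99.4, 77.4 and 75.1 CPM in T0, 41.01, 47.2, 67.3 and 42.1 CPM in T3, and 39.6 and 38.8 CPM in T5. No T3 value reached a T0 value, and T3 replicate 3 was the highest of T3, as it was for Col6a1. The fall was 1.70-fold to T3 (log2 fold change -0.77 ± 0.21 SE, adjusted p = 0.00504) and 2.14-fold to T5 (log2 fold change -1.10 ± 0.26 SE, adjusted p = 0.00182), and both calls held in each alternative. The ratio of Col6a2 to Col6a1 reads stayed within 0.407 to 0.551 over all 9 replicates. It was 0.496 ± 0.0281 (SD, n = 3) in T0 and 0.459 ± 0.0378 (SD, n = 4) in T3, a log2 difference of -0.11 (exact permutation p = 0.2, adjusted over 4 pairs 0.267).

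Col6a3 (ENSMUSG00000048126.16, chr1:90765923-90843971, minus strand) encodes the large alpha-3 chain. It was low beside its partners, at 3.38, 4.28 and 10.1 CPM in T0, 9.56, 9.03, 19.6 and 7.67 CPM in T3, and 12.1 and 13.4 CPM in T5. The T3 and T0 ranges overlapped, and T3 replicate 3 and T0 replicate 3 were the highest of their groups. The call between T0 and T3 (log2 fold change 0.95 ± 0.33 SE, adjusted p = 0.025) was lost without T3 replicate 3 (0.56, adjusted p = 0.168). It was also lost when the first (0.67, adjusted p = 0.105) or the second T0 library (0.76, adjusted p = 0.125) was left out, and with upper quartile scaling (1.14, adjusted p = 0.0641). That between T0 and T5 (log2 fold change 1.10 ± 0.38 SE, adjusted p = 0.0255) was lost in 5 of 16 alternatives, among them leaving out the first T0 library (0.82, adjusted p = 0.0804), the second (0.91, adjusted p = 0.101) or T5 replicate B (1.03, adjusted p = 0.0918). Per kb of exon Col6a3 was at 0.494 CPM in T0, where Col6a1 was at 39.00 and Col6a2 at 10.1.

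The genes of the chains that can take the place of alpha-3 lie together on chromosome 9. Col6a4 (chr9:105989454-106096783, minus strand) was at 5.32 to 9.73 CPM in T0, from 6.74 to 8.84 CPM in T3 and from 9.41 to 9.96 CPM in T5. Col6a5 (chr9:105856078-105960643, minus strand) ranged over 4.16 to 8.86 CPM in T0, from 5.75 to 8.48 CPM in T3 and from 8.92 to 9.13 CPM in T5. Col6a6 (chr9:105687809-105828160, minus strand) ranged over 9.89 to 18.1 CPM in T0, from 9.08 to 14.1 CPM in T3 and from 14.8 to 15.4 CPM in T5. The groups overlapped for all 3 genes in T3 against T0, and their reads per kb of gene span were near the background described further on.

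Col6a1 and Col6a2 fell together between T0 and T3, and Col6a3 was called higher. The promoters of these genes are shown for comparison. The 250 bases before the start site are printed 5′ to 3′ on the gene's strand, from RefSeq for GRCm38.p6. Capitals mark a match to the AP-1 motif TGANTCA, the site of the Fos and Jun factors.
Col6a1 (chr10:76726045-76726294, minus strand): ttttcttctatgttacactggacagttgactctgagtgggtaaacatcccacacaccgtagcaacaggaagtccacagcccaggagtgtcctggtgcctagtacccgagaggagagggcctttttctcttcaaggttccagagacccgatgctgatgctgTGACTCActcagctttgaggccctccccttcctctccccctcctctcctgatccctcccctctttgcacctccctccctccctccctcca
Col6a2 (chr10:76623631-76623880, minus strand): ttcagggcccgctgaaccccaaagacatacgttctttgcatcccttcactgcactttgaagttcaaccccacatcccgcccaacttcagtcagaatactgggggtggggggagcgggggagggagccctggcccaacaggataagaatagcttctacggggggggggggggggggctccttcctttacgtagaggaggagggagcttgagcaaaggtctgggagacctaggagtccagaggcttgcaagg
Col6a3 (chr1:90843972-90844221, minus strand): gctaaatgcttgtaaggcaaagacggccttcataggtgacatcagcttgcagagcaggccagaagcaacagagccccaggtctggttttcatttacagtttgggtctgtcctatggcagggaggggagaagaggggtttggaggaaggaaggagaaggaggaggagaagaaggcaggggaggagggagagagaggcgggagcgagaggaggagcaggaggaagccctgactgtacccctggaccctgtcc

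Both strands of the window from 250 bases before to 50 after each start were searched. The AP-1 motif was found in 7.81% of 32851 promoters of the same length and in 1 of 38 promoters of 35 collagen genes, that of Col6a1, where the match TGACTCA starts 90 bases before the RefSeq start. GENCODE starts this gene further upstream, at 76726168, so that the match lies within its annotated span. TGGGAA, the core of the RBPJ site, was found in 25.6% of all promoters and in 12 of the 38 (31.6%), and not in the 3 windows printed. A match is a run of letters, and its absence says only that the letters are not in this window. Col5a2 is not among the promoters used.

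**Figure D3:**
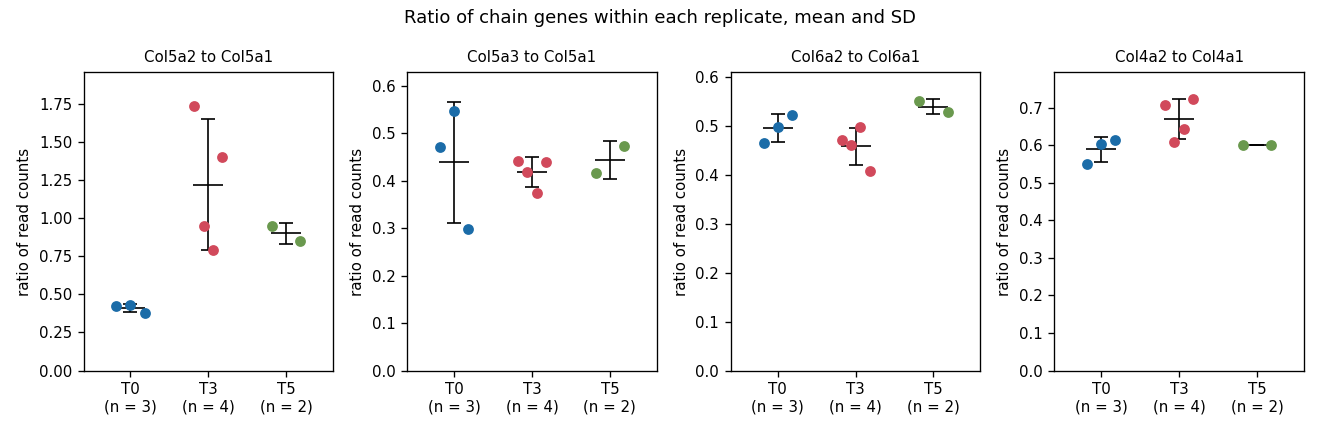
Ratio of the read counts of 2 chains of the same collagen type within each replicate, with the mean and SD, on y axes that start at 0. The Col5a2 to Col5a1 ratio lies between 0.380 and 0.428 in T0 and between 0.792 and 1.74 in T3; in the 3 other pairs T0 and T3 overlap.

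Of the 8 fibrillar collagen genes other than collagen V, 5 rose between T0 and T3, Col3a1 fell, and Col2a1 and Col11a1 were not called. Col3a1 (chr1:45311538-45349706, plus strand), the main fibrillar chain of soft tissue, was the most abundant of them, at 614, 453 and 402 CPM in T0, 210.2, 262, 322 and 249 CPM in T3, and 401 and 389 CPM in T5. All T3 values lay below all T0 values (log2 fold change -0.91 ± 0.22 SE, adjusted p = 0.00159), a call that held in each of 17 alternatives. T5 lay between the groups and passed against neither T3 (log2 fold change 0.60 ± 0.24 SE, adjusted p = 0.273) nor T0 (log2 fold change -0.31 ± 0.26 SE, adjusted p = 0.365), and with upper quartile scaling the last difference changed sign to 0.05.

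Col1a1 and Col1a2 encode the chains of collagen I, the main collagen of tendon and scar. Col1a1 (chr11:94936224-94953042, plus strand) was at 5.04, 5.86 and 9.47 CPM in T0, 9.34, 12.6, 34.9 and 5.65 CPM in T3, and 35.99 and 34.3 CPM in T5. T3 replicate 3 was at the level of T5, and the other T3 replicates overlapped T0. The call between T0 and T3 (log2 fold change 1.20 ± 0.40 SE, adjusted p = 0.0195) was lost without T3 replicate 3 (0.44, adjusted p = 0.266) and in DESeq2 (1.23, adjusted p = 0.1). Leaving out the first (1.02, adjusted p = 0.0573) or the second T0 library (1.10, adjusted p = 0.0664) ended it too. Between T3 and T5 it did not pass (log2 fold change 1.17 ± 0.42 SE, adjusted p = 0.19), but did without T3 replicate 3 (1.93, adjusted p = 0.000569). Between T0 and T5 it rose 5.16-fold (log2 fold change 2.37 ± 0.46 SE, adjusted p = 0.000251), with the call kept in each of 17 alternatives.

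Col1a2 (chr6:4504814-4541544, plus strand) had the same shape over the replicates, at 3.77, 3.62 and 7.06 CPM in T0, 7.61, 10.8, 23.9 and 6.19 CPM in T3, and 16.99 and 17.5 CPM in T5. T3 replicate 3 was again far above the other T3 values, of which 1 fell within T0. The rise to T3 (log2 fold change 1.33 ± 0.35 SE, adjusted p = 0.00372) held in each of 17 alternatives and was smallest at 0.77, and that to T5 (log2 fold change 1.83 ± 0.40 SE, adjusted p = 0.00077) held in each of 16. Against T3, T5 did not pass (log2 fold change 0.51 ± 0.37 SE, adjusted p = 0.601).

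Markers of fibroblasts were set beside these values. In 11 of 14 markers of fibro-adipogenic progenitors and fibroblasts, T3 replicate 3 was the highest T3 library. Some of the 11 were low, such as Lum at 0.845 to 2.51 CPM in T3, and the same count was not made for all genes. T3 replicate 3 was also highest in 6 of 12 satellite cell, 4 of 6 macrophage, 4 of 8 pericyte and smooth muscle and 3 of 6 tenocyte markers. For endothelial markers this held in 1 of 10, for Schwann cell and myofibre markers in 0 of 6 and 0 of 8. Dcn, a proteoglycan of collagen fibrils, was at 29.7 CPM there and at 10.3 to 10.7 in the other T3 libraries. The gap was smaller for Scara5 (19.2 against 15.2 to 18.3 CPM), and Dpt was lowest there (66.1 against 71.7 to 91.3 CPM). In T5 Dcn was at 11.4 and 12.5 CPM, close to its 10.5 to 14.0 CPM in T0. The 14 markers were mixed there, with a median log2 fold change of 0.27 between T0 and T5. Of the 14, 0 were called higher and 4 lower in T5 than in T0 (0% and 28.6%, against 13.2% and 22.5% of all genes). The summed level of all 14 markers, which rests mainly on Gsn and Htra3, was 795 to 1455 CPM in T0, from 424 to 621 CPM in T3 and from 289 to 310.0 CPM in T5. Between T0 and T3, 2 of the 14 were called higher and 4 lower (14.3% and 28.6%, against 15.0% and 22.9% of all genes). Of 6 tenocyte markers, Fmod and Thbs4 were called higher in T3 than in T0 (33.3%, against 15.0% of all genes). The sum of all 6 was 18.7 to 20.5 CPM in T0 and 20.7 to 38.5 in T3. The part of these cells in the collagen values was not tested.

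Col27a1 (chr4:63214004-63334991, plus strand), a short fibrillar collagen best known from cartilage, rose at both steps. It was at 6.75, 8.05 and 13.7 CPM in T0, 19.5, 14.4, 25.01 and 16.8 CPM in T3, and 49.6 and 41.1 CPM in T5. The groups did not overlap in any pair. The rise was 1.99-fold from T0 to T3 (log2 fold change 0.99 ± 0.25 SE, adjusted p = 0.00251) and 2.40-fold from T3 to T5 (log2 fold change 1.26 ± 0.26 SE, adjusted p = 0.00873), the latter lost with upper quartile scaling (1.31, adjusted p = 0.0631) and without T5 replicate A (1.12, adjusted p = 0.191). Col11a2 (chr17:34039437-34066685, plus strand), a cartilage fibril chain, was at 2.23, 2.88 and 3.52 CPM in T0, 7.32, 8.46, 6.63 and 7.23 CPM in T3, and 8.93 and 8.05 CPM in T5 and rose to T3 without overlap (log2 fold change 1.36 ± 0.22 SE, adjusted p = 2.33e-05). Col24a1 (chr3:145292472-145552011, plus strand) was at 11.8, 16.1 and 23.9 CPM in T0, 31.7, 21.3, 25.3 and 28.1 CPM in T3, and 24.4 and 33.3 CPM in T5. Its ranges overlapped, and its call (log2 fold change 0.62 ± 0.24 SE, adjusted p = 0.0408) was lost in 7 of 17 alternatives, for example when T0 replicate 1 (0.41, adjusted p = 0.193), another of T0 2, T3 1, 3 and 4, or T5 replicate B was left out. Col2a1 had at most 4.37 CPM and Col11a1 at most 11.02 CPM.

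None of the 6 type IV genes, the basement membrane collagens proper, was called in any comparison. Col4a1 and Col4a2, which encode the widespread form, share a bidirectional promoter and overlap by 22 bp at their starts. Col4a1 (chr8:11198423-11312826, minus strand) was at 485, 417 and 341 CPM in T0, 429, 432, 519 and 549 CPM in T3, and 396 and 418 CPM in T5. Col4a2 (chr8:11312805-11449287, plus strand) was at 267, 251 and 209.6 CPM in T0, 303, 263, 334 and 396 CPM in T3, and 237 and 251 CPM in T5. For both genes T3 was highest on average, with values that overlapped T0 (log2 fold change 0.22 ± 0.21 SE, adjusted p = 0.471 and log2 fold change 0.42 ± 0.21 SE, adjusted p = 0.13). With upper quartile scaling both were called higher in T3 (0.53, adjusted p = 0.00496, and 0.73, adjusted p = 0.0015), as was Col4a2 with a filter at a mean of 1 CPM (0.49, adjusted p = 0.0239). Between T0 and T5 the log2 fold changes were -0.03 and 0.01, with SE 0.25 for both, and changed sign in 5 of 16 alternatives each. The ratio of Col4a2 to Col4a1 reads was 0.589 ± 0.0338 (SD, n = 3) in T0 and 0.671 ± 0.0534 (SD, n = 4) in T3 (exact permutation p = 0.0857, adjusted over 4 pairs 0.171).

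The 4 minor type IV genes form 2 head-to-head pairs, Col4a3 with Col4a4 and Col4a5 with Col4a6, 71 and 1308 bp apart. Col4a3 was at 5.76 to 9.54 CPM in T0, from 8.18 to 10.5 CPM in T3 and from 10.7 to 10.9 CPM in T5. Col4a4 was at 11.9 to 13.2 CPM in T0, from 10.3 to 11.1 CPM in T3 and from 15.2 to 15.4 CPM in T5. Col4a5 ranged over 11.5 to 15.3 CPM in T0, from 9.47 to 12.1 CPM in T3 and from 10.97 to 11.7 CPM in T5. Col4a6 ranged over 16.4 to 24.02 CPM in T0, from 15.7 to 18.8 CPM in T3 and from 18.7 to 19.04 CPM in T5. All 4 were near background, and across the 6 type IV genes the log2 fold changes between T0 and T3 ran from -0.28 to 0.42, with a smallest adjusted p of 0.13.

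The multiplexins Col15a1 and Col18a1 are collagens of the basement membrane zone, and their C-terminal fragments are known as restin and endostatin. Both fell between T0 and T3. Col15a1 (chr4:47208161-47313167, plus strand) was at 366, 152 and 187 CPM in T0, 80.5, 34.4, 75.5 and 89.2 CPM in T3, and 75.6 and 71.02 CPM in T5. No T3 or T5 value reached a T0 value. The fall was 3.36-fold to T3 (log2 fold change -1.75 ± 0.29 SE, adjusted p = 3.58e-05) and 3.21-fold to T5 (log2 fold change -1.68 ± 0.37 SE, adjusted p = 0.000912), held in all alternatives, and no change between T3 and T5 was called (log2 fold change 0.07 ± 0.33 SE, adjusted p = 0.94). Col18a1 (chr10:77052178-77166548, minus strand) was at 60.3, 39.6 and 45.6 CPM in T0, 33.4, 28.7, 36.9 and 32.5 CPM in T3, and 42.3 and 39.5 CPM in T5. Its call (log2 fold change -0.56 ± 0.20 SE, adjusted p = 0.0281) was lost in 10 of 17 alternatives. Among these, T0 replicate 1 (-0.38, adjusted p = 0.165), T3 replicates 1, 2 and 4 and each T5 replicate were left out in turn. It overlaps Slc19a1, whose count was 66.9% of its own, so its value is uncertain.

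**Figure D4:**
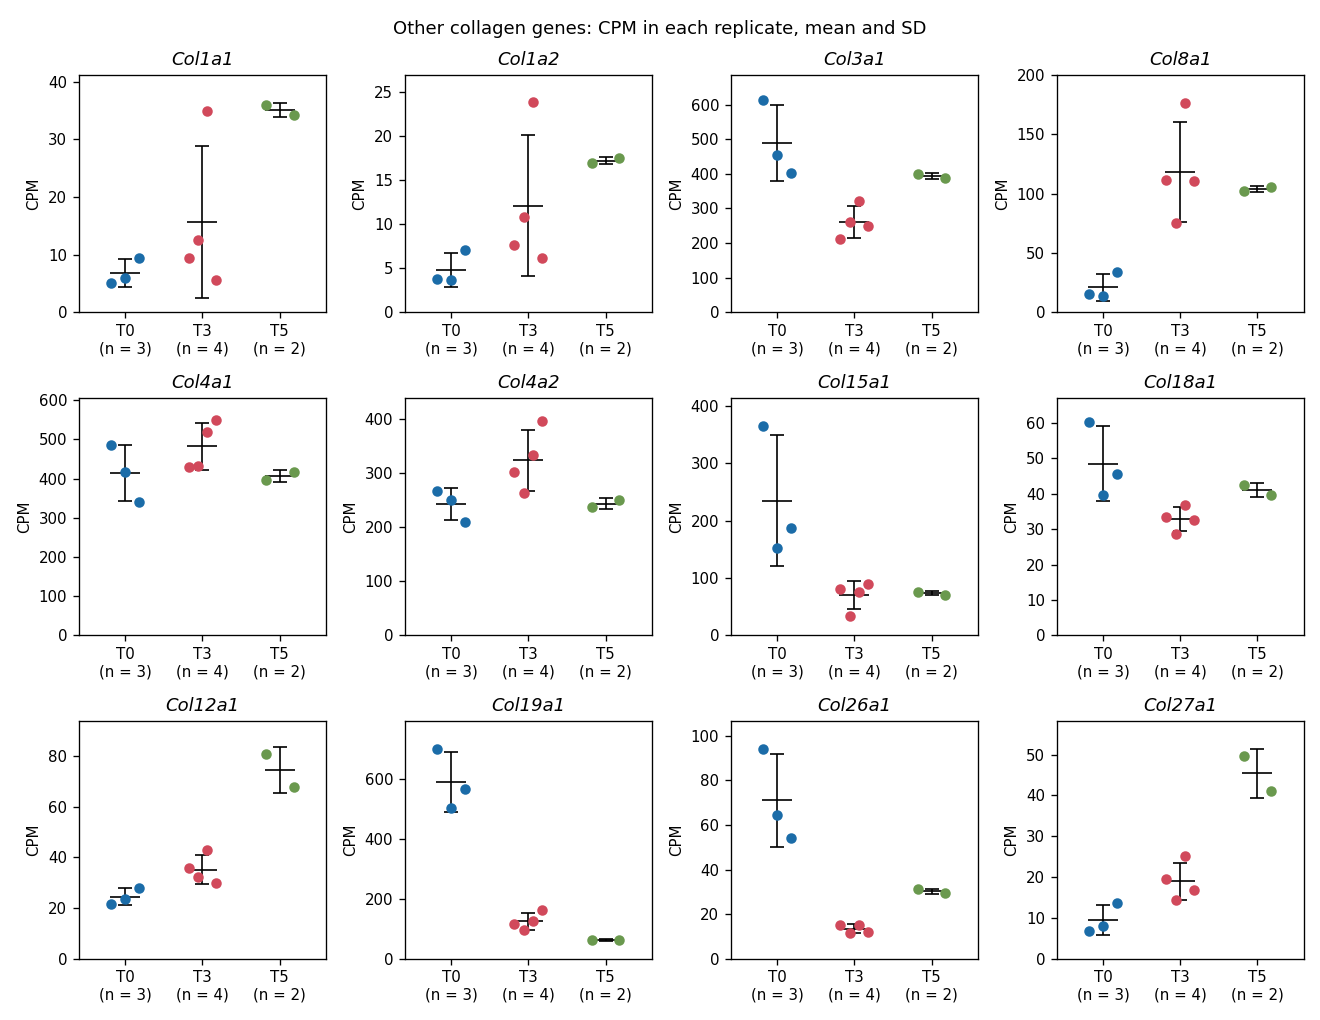
CPM in each replicate, with the mean and SD, of 12 further collagen genes on linear y axes that start at 0. Col19a1 falls at both steps, Col12a1 and Col27a1 are highest in T5, Col26a1 is lowest in T3, and for Col1a1 and Col1a2 T3 replicate 3 lies far above the other T3 replicates.

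Among the 9 FACIT genes, Col19a1 and Col16a1 fell between T0 and T3, Col9a3 and Col12a1 rose, and 5 were not called. Col19a1 (chr1:24261890-24587472, minus strand) had the highest level per kb of exon of all 44 genes in T0, at 85.9 CPM, ahead of Col5a1 at 56.9 and Col4a1 at 55.5. That rank depends on the length used, since intronic reads are in the counts and the gene spans 325583 bp. Per kb of gene span Col19a1 was at 99.97 times the background described further on, below Col3a1 at 717, Col6a1 at 549, Col5a1 at 175 and others. It was at 702, 505 and 568 CPM in T0, 116, 94.9, 126 and 164 CPM in T3, and 63.5 and 60.6 CPM in T5. The groups were separate in every pair. The fall was 4.73-fold to T3 (log2 fold change -2.24 ± 0.22 SE, adjusted p = 3.76e-08) and 9.53-fold to T5 (log2 fold change -3.25 ± 0.30 SE, adjusted p = 4.2e-08). That from T3 to T5 was 2.02-fold (log2 fold change -1.01 ± 0.26 SE, adjusted p = 0.0406), and its call was lost in 7 of 16 alternatives: with RLE scaling (-1.12, adjusted p = 0.0708) and when T0 replicate 2, T3 replicate 1, 3 or 4, or a T5 replicate was left out.

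Col12a1 (chr9:79598991-79718831, minus strand), a FACIT collagen of tendon and muscle connective tissue, was at 21.6, 23.6 and 28.02 CPM in T0, 35.6, 32.1, 42.7 and 29.9 CPM in T3, and 80.7 and 67.9 CPM in T5. T5 lay well above T3, and T3 above T0 by less. It rose from T3 to T5 (log2 fold change 1.08 ± 0.22 SE, adjusted p = 0.00634), a call lost without T5 replicate A (0.95, adjusted p = 0.296) or B (1.20, adjusted p = 0.0733). Its call from T0 to T3 (log2 fold change 0.52 ± 0.20 SE, adjusted p = 0.044) was lost in 12 of 17 alternatives, for example when T3 replicate 3 (0.42, adjusted p = 0.16), or any other replicate but T0 3 and T3 4, was left out. That from T0 to T5 (log2 fold change 1.61 ± 0.23 SE, adjusted p = 1.09e-05) was lost in none of 16.

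Col16a1 (chr4:130047840-130099283, plus strand) was at 26.1, 23.9 and 21.8 CPM in T0, 11.1, 16.4, 17.6 and 11.96 CPM in T3, and 14.6 and 14.2 CPM in T5 and fell without overlap (log2 fold change -0.74 ± 0.21 SE, adjusted p = 0.00528), a call lost in 1 of 18 alternatives. Its call in T5 against T0 (log2 fold change -0.73 ± 0.25 SE, adjusted p = 0.0262) was lost in 4 of 17: with upper quartile scaling (-0.38, adjusted p = 0.129) and without T0 replicate 2 (-0.73, adjusted p = 0.0608), T5 replicate A (-0.73, adjusted p = 0.184) or B (-0.71, adjusted p = 0.194). Col9a3 (chr2:180597790-180622189, plus strand), a chain of cartilage collagen IX, was at 1.04, 1.32 and 2.61 CPM in T0, 4.45, 3.44, 5.74 and 4.48 CPM in T3, and 5.21 and 5.16 CPM in T5, also without overlap (log2 fold change 1.43 ± 0.28 SE, adjusted p = 0.000223). It overlaps Tcfl5, whose count was 54.5% of its own, so its rise is uncertain. Col14a1 (chr15:55307750-55520803, plus strand) was called in T5 against T0 alone, at 10.8, 10.8 and 15.9 CPM in T0, 18.02, 16.4, 19.4 and 15.9 CPM in T3, and 19.7 and 19.3 CPM in T5 (log2 fold change 0.64 ± 0.24 SE, adjusted p = 0.0395), a call lost in 11 of 16 alternatives, among them without any 1 replicate other than T0 replicate 3 (0.54 to 0.65, for example adjusted p = 0.162 without T0 replicate 2). Col20a1 was at 6.82 to 12.4 CPM in T0, from 9.02 to 10.3 CPM in T3 and from 11.1 to 11.6 CPM in T5 and passed in no comparison, and it overlaps BX649560.1, whose count was 45.4% of its own. The remaining FACIT genes, Col9a1, Col9a2 and Col22a1, reached at most 5.58, 1.81 and 18.8 CPM.

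Transmembrane collagens are anchored in the cell membrane, and 1 of 4 rose between T0 and T3. Col23a1 (chr11:51289920-51583918, plus strand) was at 19.4, 20.7 and 26.4 CPM in T0, 46.97, 43.4, 47.7 and 46.2 CPM in T3, and 50.1 and 49.7 CPM in T5. T3 and T5 lay together above T0 (log2 fold change 1.05 ± 0.20 SE, adjusted p = 0.00012 for T3 and log2 fold change 1.17 ± 0.22 SE, adjusted p = 0.000222 for T5), and the calls held in all alternatives. Col13a1 (chr10:61838236-61979108, minus strand), which clusters acetylcholine receptors at the neuromuscular junction, was at 4.98, 7.50 and 11.9 CPM in T0, 10.7, 9.06, 9.24 and 8.49 CPM in T3, and 13.2 and 14.2 CPM in T5. It was called in T5 against T0 alone (log2 fold change 0.75 ± 0.28 SE, adjusted p = 0.0403), a call lost in 10 of 17 alternatives, for example when T0 replicate 1 (0.49, adjusted p = 0.146) or 2, T3 replicate 2 or 4, or a T5 replicate was left out. Col17a1, a hemidesmosome collagen, ranged over 8.04 to 10.8 CPM in T0, from 7.83 to 10.2 CPM in T3 and from 8.09 to 8.30 CPM in T5 and was not called. Col25a1 was not called either, with at most 33.6 CPM over a gene of 468377 bp.

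The short-chain collagens form hexagonal networks, and they held the largest rise of the 44 genes between T0 and T3. Col8a1 (chr16:57624258-57754737, minus strand), best known from vessel walls and the cornea, was at 15.1, 13.5 and 33.9 CPM in T0, 112, 75.2, 177 and 110.4 CPM in T3, and 102 and 106 CPM in T5. Every T3 and T5 value was well above every T0 value. The rise was 5.68-fold to T3 (log2 fold change 2.51 ± 0.31 SE, adjusted p = 9.15e-07) and held in T5 (log2 fold change 2.32 ± 0.34 SE, adjusted p = 1.26e-05), with T5 and T3 overlapping. T3 replicate 3 was the highest here too, and the fold change ran from 2.25 to 3.05 on the log2 scale over 18 alternatives. Of 10 endothelial markers, Pecam1, Cdh5, Cldn5 and Egfl7 were called higher in T3 than in T0, against 15.0% of all genes, and the other 6 were not called. The summed level of the 10, which rests mainly on Tek, 1 of the uncalled genes, was 251 to 298 CPM in T0, from 386 to 486 CPM in T3 and from 249.6 to 254 CPM in T5, where Col8a1 was at 102 and 106 CPM. Their part in the level of Col8a1 was not tested.

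Col10a1 (chr10:34389981-34397085, plus strand), the collagen of hypertrophic cartilage, was at 5.54, 3.97 and 4.22 CPM in T0, 1.29, 0.814, 1.09 and 1.42 CPM in T3, and 0.789 and 0.996 CPM in T5 and was called lower (log2 fold change -1.99 ± 0.25 SE, adjusted p = 7.39e-07). It lies within Nt5dc1, whose count was 1793% of its own, so its fall cannot be told apart from that of reads of the host. Col8a2 had at most 2.45 CPM and was not called.

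Of the 3 genes outside these classes, Col26a1 fell and then rose. Col26a1 (chr5:136741759-136883209, minus strand), also known as Emid2, was at 94.3, 64.6 and 54.3 CPM in T0, 14.9, 11.6, 15.3 and 12.04 CPM in T3, and 31.1 and 29.3 CPM in T5. T5 lay between T3 and T0 and overlapped neither. It fell 5.27-fold from T0 to T3 (log2 fold change -2.40 ± 0.22 SE, adjusted p = 1.08e-08), rose 2.24-fold from T3 to T5 (log2 fold change 1.16 ± 0.23 SE, adjusted p = 0.00604) and remained 2.36-fold below T0 in T5 (log2 fold change -1.24 ± 0.26 SE, adjusted p = 0.00066). The rise was lost without T5 replicate A (1.12, adjusted p = 0.153) or B (1.20, adjusted p = 0.0957), the other calls in no alternative. Col7a1, the anchoring fibril collagen of skin, ranged over 4.62 to 8.01 CPM in T0, from 4.68 to 6.56 CPM in T3 and from 6.35 to 7.13 CPM in T5. It was not called, and neither was Col28a1, with at most 13.1 CPM.

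Many collagen genes are long, and reads scattered over the genome collect in them. As a measure of this background, 1337 genes of families silent in muscle that overlap no other gene were summed. They had 0.0153 to 0.0243 CPM per kb of gene span in T0, 0.0207 to 0.0249 in T3 and 0.0256 and 0.0255 in T5, so the background itself rose by 0.22 on the log2 scale from T0 to T3 and by 0.42 from T0 to T5. With a limit of 6 times background, chosen after the values were seen, 18 of the 44 members were under it in the mean of every group: Col2a1, Col11a1, Col24a1, Col4a3 to Col4a6, Col6a4 to Col6a6, Col9a1, Col9a2, Col14a1, Col22a1, Col13a1, Col25a1, Col8a2 and Col28a1. Their group means were 1.95 to 5.69 times background. Their median log2 fold change was 0.18 from T0 to T3, 0.24 from T3 to T5 and 0.48 from T0 to T5, near the change of the background. Of these 18, Col24a1 was the 1 called between T0 and T3, and Col24a1, Col14a1 and Col13a1 were the 3 called between T0 and T5, all higher. Another 7 members were under the limit in 1 group. In T0 these were Col6a3 at 3.74, Col9a3 at 3.41, Col11a2 at 5.54, Col23a1 at 3.99 and Col27a1 at 4.02 times background, in T3 Col26a1 at 4.27 and in T5 Col10a1 at 4.91. Background is thus a sizeable part of the lower level in the fold changes printed for these 7.

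**Figure D5:**
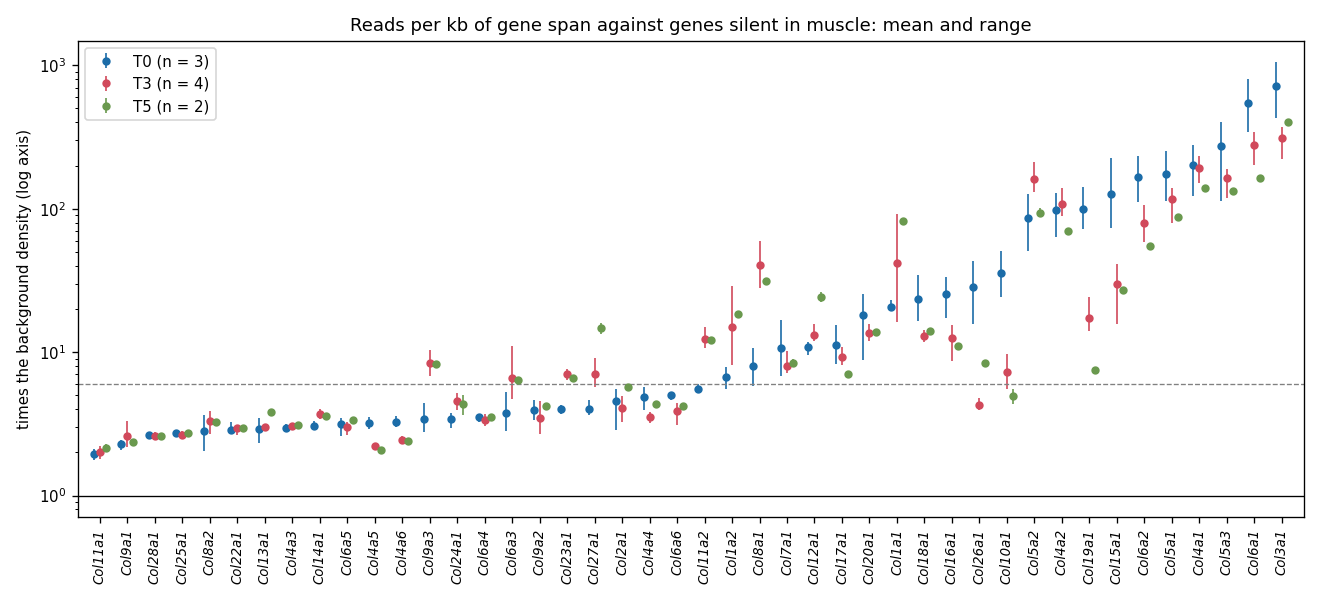
Reads per kb of gene span of each collagen gene as a multiple of the background density, for T0, T3 and T5, on a log axis; points are group means and bars the range over replicates. The solid line is the background and the dashed line 6 times background, under which 18 genes lie in every group; Col3a1 and Col6a1 are highest in T0.

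The genes that make and modify collagen were taken from a list of 30. Between T0 and T3, 7 rose and 10 fell, with a median of -0.03. These are 23.3% and 33.3% of the list, against 15.0% and 22.9% of all genes. The crosslinking oxidase gene Lox was at 2.01, 1.96 and 2.32 CPM in T0, 34.6, 33.4, 19.4 and 41.1 CPM in T3, and 17.8 and 15.3 CPM in T5 and rose without overlap (log2 fold change 3.93 ± 0.27 SE, adjusted p = 2.81e-10). Adamts3, an N-propeptidase of fibrillar procollagens, rose (2.46, adjusted p = 6.7e-08), as did Pcolce2, an enhancer of procollagen C-propeptide removal (2.06, adjusted p = 4.22e-07). Also higher were the prolyl 4-hydroxylase subunits P4ha1 (0.60, adjusted p = 0.0279) and P4ha3 (1.01, adjusted p = 0.00101), the lysyl hydroxylase Plod2 (1.20, adjusted p = 0.000207) and Loxl2 (1.51, adjusted p = 6.84e-06). Loxl3 and P3h4 were among the 10 that fell (-1.71, adjusted p = 6.26e-07, and -1.79, adjusted p = 1.18e-06), along with P3h2, P3h3, Loxl1, Pcolce, Crtap, Ppib, Fkbp10 and Plod1. The values of Pcolce2, Loxl3, P3h2, Pcolce, Crtap, Ppib and Fkbp10 are uncertain, since each overlaps a gene with at least 10% of its count.

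Between T3 and T5, 3 of the 30 genes rose (10%, against 1.28% of all genes) and none was called lower. Adamts2, the N-propeptidase of procollagens I and III, was at 8.63, 12.9 and 18.8 CPM in T0, 19.4, 16.9, 22.1 and 16.5 CPM in T3, and 98.4 and 107 CPM in T5. It did not pass between T0 and T3 (0.47, adjusted p = 0.121) and rose between T3 and T5 (log2 fold change 2.46 ± 0.25 SE, adjusted p = 2.13e-06). Serpinh1, which encodes the collagen chaperone HSP47, was at 69.9, 80.6 and 90.96 CPM in T0, 53.1, 80.7, 119 and 101 CPM in T3, and 218 and 232 CPM in T5, and rose as well (log2 fold change 1.35 ± 0.26 SE, adjusted p = 0.00377). Loxl2 rose too (0.94, adjusted p = 0.0291). Between T0 and T5, 8 of the 30 were called higher and 10 lower (26.7% and 33.3%, against 13.2% and 22.5% of all genes).

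Of 15 receptors of collagen, 4 rose and 5 fell between T0 and T3, 26.7% and 33.3% against 15.0% and 22.9% of all genes. None was called between T3 and T5, where 1.28% and 0.888% of all genes were. Ddr2, a receptor tyrosine kinase for fibrillar collagens, was at 197, 167 and 119 CPM in T0, 1196, 1246, 968 and 1446 CPM in T3, and 969 and 931 CPM in T5. The T3 and T5 values were several times every T0 value (log2 fold change 2.91 ± 0.25 SE, adjusted p = 6.73e-09). Calcr, the receptor of the collagen V of these cells, was at 508, 335 and 360.0 CPM in T0, 106, 102, 138 and 144 CPM in T3, and 105 and 86.4 CPM in T5 and fell without overlap (log2 fold change -1.71 ± 0.22 SE, adjusted p = 1.09e-06). The anthrax toxin receptors Antxr1 and Antxr2, which bind collagen VI among others, fell too (-1.82, adjusted p = 1.57e-07, and -1.55, adjusted p = 1.53e-06), as did Mrc2, an endocytic collagen receptor (-1.54, adjusted p = 9.33e-06), and Itga10 (-0.68, adjusted p = 0.0127), which is uncertain because it overlaps Gm42957, whose count was 176% of its own. Besides Ddr2, the integrin genes Itga11 (0.95, adjusted p = 0.000353) and Itgb1 (0.79, adjusted p = 0.00332) rose, and so did Gp6, which had at most 2.21 CPM. Between T0 and T5, 4 were called higher and 4 lower, 26.7% each, against 13.2% and 22.5% of all genes.

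Among 13 collagen-degrading proteases and their inhibitors, 3 rose and 3 fell between T0 and T3, 23.1% each, against 15.0% and 22.9% of all genes. None was called between T3 and T5, and 3 were called in each direction between T0 and T5, again 23.1%, against 13.2% and 22.5% of all genes. The inhibitor gene Timp2 was at 194, 159.9 and 118 CPM in T0, 73.3, 77.9, 84.9 and 77.6 CPM in T3, and 84.5 and 75.3 CPM in T5 and fell (-1.0, adjusted p = 0.000307), as did Timp4 (-0.88, adjusted p = 0.00177) and the gelatinase Mmp2 (-0.93, adjusted p = 0.0256), whose T3 replicates ran from 62.4 to 172 CPM. Timp3 (1.56, adjusted p = 2.14e-06), Timp1 (2.89, adjusted p = 9.85e-07) and the collagen-cleaving cathepsin Ctsk (1.11, adjusted p = 0.00174) were higher. Timp1, Timp3 and Timp4 lie within the synapsin genes Syn1, Syn3 and Syn2 on the other strand and are uncertain for that reason, as is Timp2, which overlaps Cep295nl with 11.5% of its count.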

How the data were processed

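Raw counts of reads per gene in 11 libraries of sorted mouse muscle stem cells were analysed, as deposited by the authors in 1 table. Alignment tools and builds come from the submitters' processing notes, which list GRCm38, STAR 2.5.0a, Subread with featureCounts 1.4.6-p3, DESeq2 1.12.3 and R 3.3.1. The annotation release, the strand setting and any filter are not given in the sources used here. Per the labels' protocols, RNA was recovered by RecoverAll, made for formalin-fixed samples, and sequenced as 65-bp single-end reads of stranded total RNA libraries (SMARTer Pico). Total RNA libraries and fixation both bring intronic reads into the values.

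Identifiers were matched to GENCODE vM21 (GRCm38), where 360 rows had no entry. Columns show the group but not the sample, and replicates are named by column number. T5 libraries of the same letter were added up.

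The main test was edgeR's two-sided quasi-likelihood F test (edgeR 4.0.16, R 4.3.3) after TMM scaling and filterByExpr by group, with 1 fit of all 3 groups and Benjamini-Hochberg adjustment over 31999 genes. The SE is the absolute log2 fold change over the root of F. The fit was checked on simulated counts. Chain ratios were compared by exact permutation tests. The labels do not say whether replicate numbers pair the libraries. Correlations of deviations between T0 and T3 were -0.226, 0.374 and 0.307 for numbers 1, 2 and 3. They cannot decide it, since deviations from the mean of a small group depend on each other. Alternatives were other scalings and filters, DESeq2 1.42.0, T5 libraries kept apart, a fit of 2 groups, a replicate block, leaving out each replicate, and genes without overlap. Leaving out each replicate for the chain ratios was added after seeing the data.

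The members, the lists of pathway and marker genes and the rule for named genes were chosen with earlier results of these data known. The rule takes every member. It gives replicate values for types IV, V and VI, for called members and for those with a mean of at least 5 CPM in some group. Of the pathway lists it takes the 3 smallest p-values between T0 and T3 and called genes against the majority. Departing from it, members near background are given by their range or highest value. Of each promoter the 250 bases before the start are printed without the 50 after it.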

Additional observations from a re-analysis of the deposited data

Results flagged for a closer look

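Col6a3 in T3 replicate 3 stood far from the other T3 replicates. Its level there was 19.6 CPM, against 7.67 to 9.56 CPM in the other 3, and the gap to its nearest neighbour was 0.8425 of the range of the group, above Dixon's critical value for 4 samples at the 95% level. This check was made in T3 only, for 44 collagen genes, and T0 and T5 were not checked. Chance flags about 1 in 20 groups.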

How the results depend on the processing

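Of 43 results in which a member was called, 27 kept their call in every alternative that gave a value and none changed sign. Uncalled results were followed only for Col1a1, Col1a2, Col3a1, Col4a1, Col4a2, Col5a1, Col5a2, Col5a3, Col6a1, Col6a2 and Col6a3, and not for the remaining members. Of 21 uncalled results, 3 changed sign, all in T5 against T0: Col3a1 to 0.05 with upper quartile scaling; Col4a1 to 0.33 with that scaling, 0.10 with a mean of at least 1 CPM, 0.18 with only those 2 groups fitted, and -0.15 to 0.10 over left-out replicates; and Col4a2 to -0.08 with RLE scaling, -0.02 with the 4 T5 libraries apart, -0.08 in DESeq2, and -0.08 to 0.08 over left-out replicates. The cause was not tested. Counts of calls moved by over 1.5 times as follows. Between T5 and T3, 695 genes were called, and 1213 with no filter, 2122 with the T5 libraries apart and 2993 with 2 groups fitted. The members called higher there went from 3 to 6 with 2 groups fitted, and those called lower from 1 to 0 with RLE scaling. Among genes that overlap no other gene, fewer are tested: 4629, 254 and 4378 genes were called in T3 against T0, T5 against T3 and T5 against T0, with 4, 0 and 4 members higher and 3, 0 and 3 lower. Leaving out 1 replicate at a time gave 7 to 19 members called higher in T3 than in T0 and 8 to 22 higher in T5 than in T0, with the most without T0 replicate 3. Between T5 and T3 it gave 0 to 4 members higher and 0 to 1 lower, and 184 to 2503 genes in all. Between T5 and T0 it gave 7392 to 17556 genes. A T5 replicate left alone was taken to vary like the other groups. The replicate block, a paired fit possible for T3 against T0 only because the T5 columns carry letters, called 10223 genes in place of 12139, with 9 members higher and 6 lower; the calls it lost were those of Col12a1 (0.61, adjusted p = 0.0948), Col24a1 (0.65, 0.0839), Col6a1 (-0.64, 0.0618), Col16a1 (-0.67, 0.0762) and Col18a1 (-0.52, 0.171). In member levels below some 6 times background, a limit chosen after the values were seen, background is a sizeable part.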
